A study of Mus musculus with 8 samples.

Results

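The mitochondrial ribosomal protein genes were studied in brown adipose tissue (BAT). They were chosen by symbol, as every protein-coding gene of the GENCODE mouse annotation on GRCm38 whose symbol begins with Mrpl or Mrps and a number. The rule found 78 of the 44674 genes in the table, 49 *Mrpl* genes named for the large subunit of the mitochondrial ribosome and 29 *Mrps* genes named for the small subunit. It used no measured value. All 78 passed the filter on low counts that left 14489 genes for testing.

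BAT was compared between 4 control mice (label CTRL) and 4 Ox1RΔSERT mice (label Sert-Ox1R). All 8 mice were male, carried the floxed orexin receptor 1 gene (Ox1R fl/fl), received a high-fat diet (HFD) from 4 to 18 weeks of age and were killed at the end of a hyperinsulinemic-euglycemic clamp, in which insulin is infused while blood glucose is held steady. Ox1RΔSERT mice were Ox1R fl/fl, Sert-Cre tg/wt, and the control mice were littermates without Cre. The Cre recombinase is driven by the gene of the serotonin transporter (SERT, *Slc6a4*), so that the receptor is removed from serotonergic cells and not from BAT as a whole. In BAT, the receptor gene *Hcrtr1* had values between 0 and 0.159 normalized counts, too low to check the deletion.

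Mitochondrial ribosomes translate the 13 mRNAs of the mitochondrial genome, which encode core subunits of the respiratory chain and of ATP synthase. The ribosomal RNAs are made inside the mitochondrion, whereas all ribosomal proteins are encoded in the nucleus, made in the cytosol and imported. Some of the proteins have counterparts in bacterial ribosomes and others are particular to mitochondria. Brown adipocytes are rich in mitochondria, and their heat production by uncoupling protein 1 draws on the respiratory chain that these ribosomes help to build.

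Library totals were between 35852708 and 50063339 estimated counts, of which the 78 genes took between 0.288% and 0.359%. Mitochondrially encoded genes took 40.0% to 46.8% in control mice and 33.6% to 44.6% in Ox1RΔSERT mice. Normalized values are CPM, counts scaled to the size of the library, after TMM scaling, which sets most genes to the same level between libraries. Ox1RΔSERT mice 11601 and 11708 stood apart from the other 6 in markers of other cells. The summed CPM of 10 leukocyte and macrophage markers was 941 and 748 in these mice, 190 and 209 in the other Ox1RΔSERT mice and 116 to 257 in control mice, with no marker at 0 in all mice. The 7 fibroblast markers summed to 6160 and 2940, against 755 and 1120 in the other Ox1RΔSERT mice and 438 to 1150 in control mice. Of 10 brown adipocyte markers, the sum was 4510 and 4330 in mice 11601 and 11708, 6760 and 6220 in mice 11243 and 11613, and 6570 to 8660 in control mice. *Ucp1* was the largest part of this sum. In mice 11601 and 11708, *Ucp1*, *Cidea*, *Cox7a1*, *Cox8b* and *Elovl3* were below all control mice in both, and the other markers were not. *Ebf2* was at 37.2 and 30.3 CPM there (control mice 24.1 to 34.8), and *Prdm16* at 18.6 and 11 CPM (control mice 9.61 to 24.3). *Ucp1* was present in every library, at 2510 to 4890 CPM. Skeletal muscle markers were high in control mouse 11253 and Ox1RΔSERT mouse 11708, with sums of 1730 and 2370, and were at 2.52 to 189 in the other mice. In whole tissue, fewer brown adipocytes and less RNA of a gene per cell cannot be told apart.

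The 78 genes together were lower, relative to most other genes, in Ox1RΔSERT mice 11601 and 11708 than in any control mouse, and this order was absent on the TPM scale. The summed normalized value was 3708, 3580, 3519 and 3488 CPM in control mice 10684, 11253, 11560 and 11563. It was 3516, 2797, 3321 and 2521 CPM in Ox1RΔSERT mice 11243, 11601, 11613 and 11708. Mouse 11243 lay within the control range, mouse 11613 lay below it, and the other two lay far below it. The means were 3570 ± 97.3 CPM in control mice and 3040 ± 460 CPM in Ox1RΔSERT mice (SD, n = 4 each), a ratio of 0.852, and the spread among Ox1RΔSERT mice was the wider one.

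In TPM, transcript abundances that are corrected for length and scaled to the sum of all transcripts including those of the mitochondrial genome, the direction was the opposite. Control mice 10684, 11253, 11560 and 11563 had summed TPM of 3793, 3262, 3492 and 3553. Ox1RΔSERT mice 11243, 11601, 11613 and 11708 had 3424, 4012, 3996 and 3475. The groups overlapped, with means of 3520 ± 218 and 3730 ± 321 (SD, n = 4 each). Mitochondrially encoded genes held 63.8% to 66.9% of all TPM in control mice and 57.0% to 66.0% in Ox1RΔSERT mice, and the share was lowest in mice 11601 and 11613, whose TPM sums of ribosomal protein genes were highest. When the mitochondrially encoded genes were left out before scaling, the median log2 fold change of the 78 genes by edgeR was the same as with them, -0.21. As a share of the counts of all nuclear genes, without TMM scaling, the 78 genes took 0.565% to 0.598% in control mice. In Ox1RΔSERT mice 11243, 11601, 11613 and 11708 they took 0.581%, 0.501%, 0.539% and 0.452%.

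**Figure D1:**
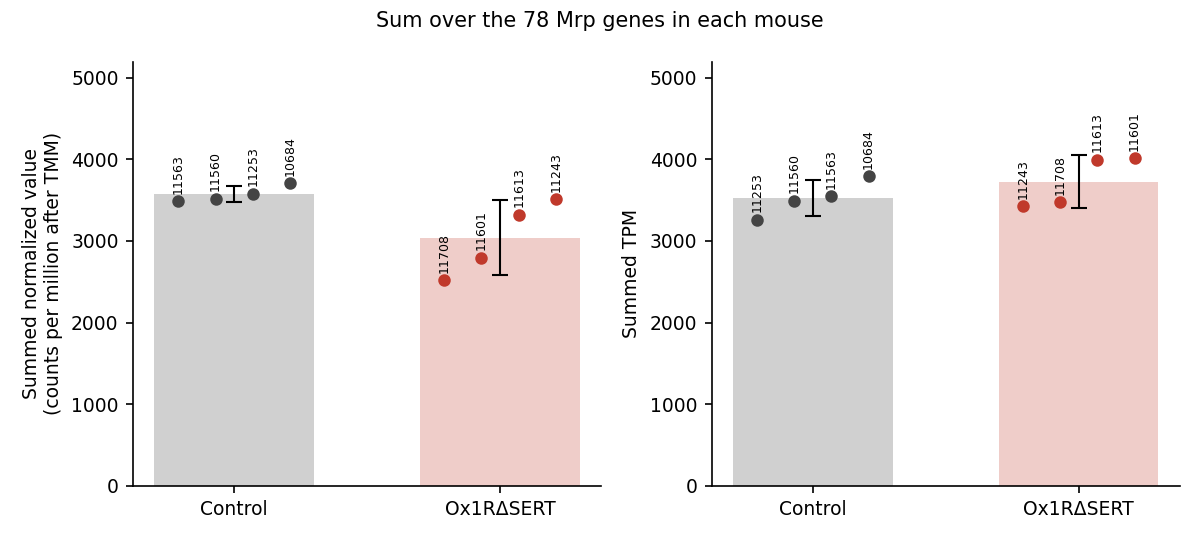
Sum over the 78 Mrp genes in each mouse, as CPM after TMM scaling (left axis) and as TPM (right axis). Bars are group means, error bars are SD (n = 4) and each point is a mouse with its number. On the CPM scale Ox1RΔSERT mice 11708 and 11601 are lowest at 2521 and 2797, whereas on the TPM scale the groups overlap and the Ox1RΔSERT mean is the higher one.

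No single gene passed the threshold. The quasi-likelihood test of edgeR called 0 of the 78 genes at an adjusted p under 0.05, as it did 0% of all 14489 genes tested, and the lowest adjusted p among the 78 was 0.316. DESeq2 also called 0 of the 78, against 1.75% of the 15179 genes to which it gave an adjusted p, and its lowest adjusted p among the 78 was 0.0744 (*Mrpl54*). At an unadjusted p under 0.05, edgeR gave 20 of the 78 genes (25.6%) as lower in Ox1RΔSERT mice, against 4.96% of all genes tested, and 0 of the 78 as higher, against 10.2% of all. DESeq2 gave 18 (23.1%) at an unadjusted p under 0.05, all lower, against 4.82% of its 15179 genes. The excess of lower genes was not particular to the 78. Of 82 tested nuclear genes of the respiratory chain, edgeR gave 21 as lower at an unadjusted p under 0.05 and 0 as higher. Of the cytosolic ribosomal protein genes it gave 0 as lower and 1 as higher.

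The estimates pointed one way for nearly the whole family after TMM scaling, but not on the TPM scale. The log2 fold change of Ox1RΔSERT over control mice was below 0 in 77 of the 78 genes (98.7%), against 49.6% of all genes tested. The median was -0.21 over the 78 genes, 86.5% of the control mean, and 0.002 over all genes tested. Single genes ranged from -0.47 (*Mrpl54*) to 0.09 (*Mrpl23*), with standard errors of 0.08 to 0.40. The nuclear genes of the respiratory chain had a median of -0.28, with 79 of 82 tested genes below 0. In 13 of the 82, all Ox1RΔSERT mice lay below all control mice, against 2.81% of all genes tested. The cytosolic ribosomal protein genes had a median of 0.03. With library size in place of TMM scaling the median of all genes moved to 0.22, and on log2(TPM + 1) to 0.23. The 78 genes had medians of -0.01 and 0.11 there, which is 0.23 and 0.13 below all genes. With library size 1 of the 78 (1.28%) was lower at an unadjusted p under 0.05, against 0.607% of all genes. On log2(TPM + 1) it was 0 of the 78, against 0.242% of all genes.

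**Figure D2:**
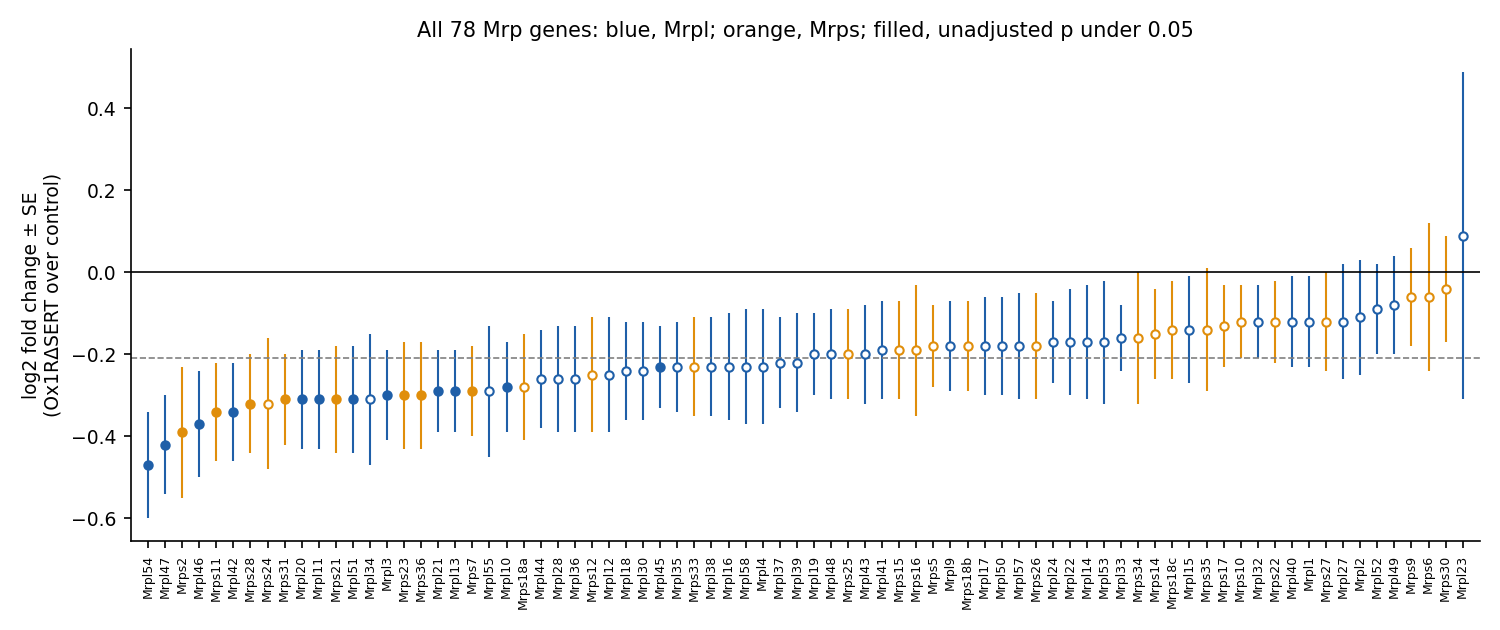
log2 fold change (Ox1RΔSERT over control, vertical axis) of each of the 78 genes in order of size, by edgeR after TMM scaling. Bars are standard errors, blue is Mrpl, orange is Mrps, filled points have an unadjusted p under 0.05, and the dashed line is the median of -0.21. All genes but *Mrpl23* lie below 0 and 20 are filled; none passed the adjusted threshold, and on log2(TPM + 1) only 11 of the 78 lie below 0.

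The counts depended on few mice. In 13 of the 78 genes (16.7%) all 4 Ox1RΔSERT mice lay below all 4 control mice, against 2.81% of all genes tested, and in 0 did all 4 lie above. These were *Mrpl3*, *Mrpl13*, *Mrpl21*, *Mrpl42*, *Mrpl45*, *Mrpl47*, *Mrpl51*, *Mrpl54*, *Mrps7*, *Mrps11*, *Mrps23*, *Mrps28* and *Mrps31*. In 41 genes at least 3 of the 4 Ox1RΔSERT mice lay below all control mice (52.6%, against 12.1% of all genes tested). Counted by mouse, 75 genes lay below all control mice in mouse 11708, 74 in mouse 11601, 39 in mouse 11613 and 18 in mouse 11243. Mice 11601 and 11708 held the 2 lowest values in 68 of the 78 genes. The same 2 mice had the high sums of leukocyte and fibroblast markers, and the part of those cells in the result was not tested. With both mice left out, a choice made after seeing the data, the median over the 78 genes was -0.05, 58 of the 78 were below 0 and 1 (1.28%) was lower at an unadjusted p under 0.05 by edgeR, against 1.2% of all genes tested. Without mouse 11708 alone the median was -0.14, with 6 genes (7.69%) lower at that p against 2.13% of all. Without mouse 11601 the median was -0.18, with 7 genes (8.97%) against 2.51% of all.

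Control mice and mouse 11243 also moved the count. Without mouse 11243 the median was -0.31, and 42 genes (53.8%) were lower at an unadjusted p under 0.05 by edgeR, against 8.5% of all genes tested. In that fit DESeq2 called 1513 of 16154 genes (9.37%) in either direction and 329 (2.04%) as lower. The 78 held 13 of these (16.7%), all lower, with a lowest adjusted p of 0.00077. Those 13 included *Mrpl11*, *Mrpl13*, *Mrpl42*, *Mrpl54* and *Mrps36*. Without mouse 11613, 27 genes (34.6%) were lower at an unadjusted p under 0.05 by edgeR, against 5.97% of all. Without any one of the control mice the count was 8 to 10 (10.3% to 12.8%), against 2.02% to 6.54% of all. In all of these fits edgeR called 0 genes at an adjusted p under 0.05.

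**Figure D3:**
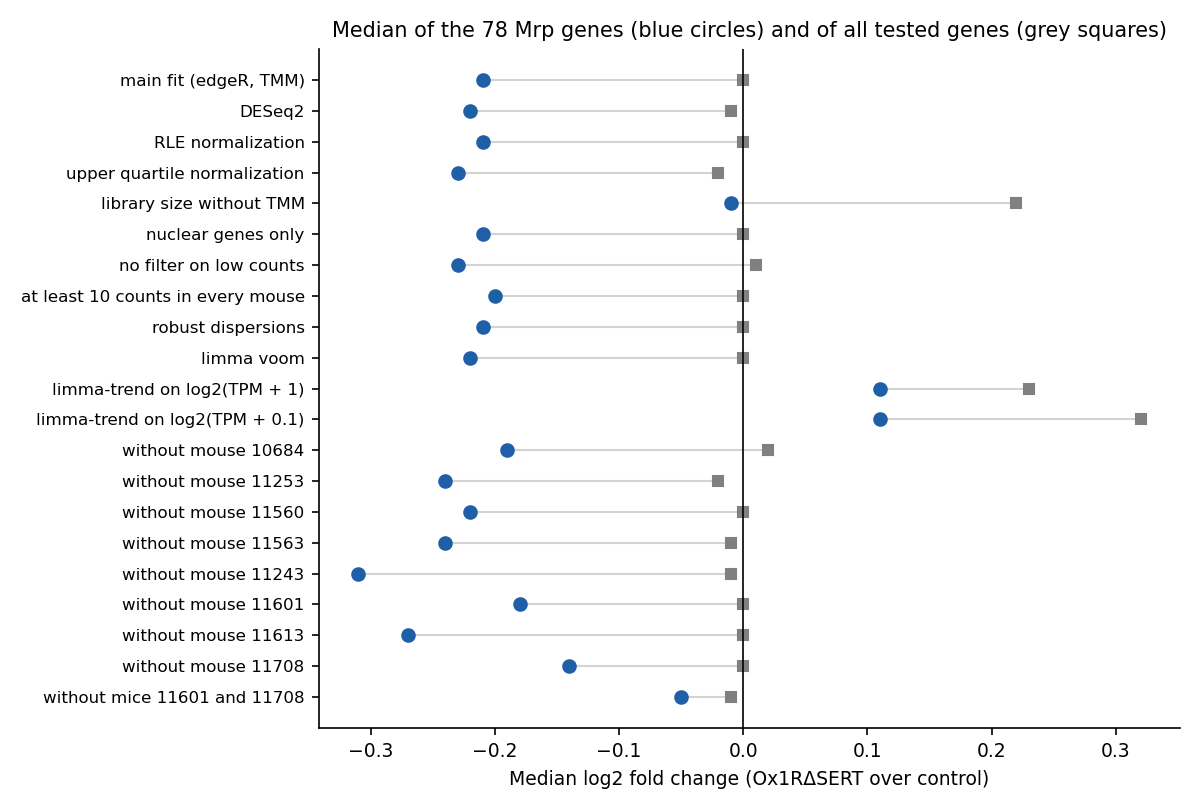
Median log2 fold change (Ox1RΔSERT over control, horizontal axis) of the 78 genes (blue circles) and of all tested genes (grey squares) under each way of processing the data. The 78 genes lie below all genes in each row, but the distance is 0.30 without mouse 11243 and 0.04 without mice 11601 and 11708, and on the TPM scale the blue circles lie above 0.

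*Mrpl54* (ENSMUSG00000034932, chr10:81264713-81266934), a protein of the large subunit that is particular to mitochondria, had the lowest p of the family. Its value was 42.5, 40.6, 39.1 and 39.7 CPM in control mice 10684, 11253, 11560 and 11563, and 35.9, 29.2, 28.4 and 23.1 CPM in Ox1RΔSERT mice 11243, 11601, 11613 and 11708. The groups did not overlap, and mouse 11613 was slightly lower than mouse 11601. Its log2 fold change of -0.47 (standard error 0.13) had an adjusted p of 0.316 by edgeR and 0.0744 by DESeq2. The exact permutation test over the 70 assignments of mice gave p = 0.0286, two-sided, which is the smallest it can give. Relative to all genes its log2 fold change was between -0.60 and -0.32 over all ways of processing, and it was -0.32 without mice 11601 and 11708.

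*Mrpl47* (ENSMUSG00000037531, chr3:32725397-32737605) encodes a large subunit protein of bacterial type that lies near the exit of the peptide tunnel. It was at 38.6, 41.1, 46.9 and 44.7 CPM in control mice 10684, 11253, 11560 and 11563, and at 37.0, 27.9, 35.5 and 27.4 CPM in Ox1RΔSERT mice 11243, 11601, 11613 and 11708. The groups were separate, but mouse 11243 and control mouse 10684 were close. The log2 fold change was -0.42 (standard error 0.12; edgeR adjusted p 0.316). Its exons share bases with *Ndufb5* and *Actl6a* on the opposite strand, and whether the quantification used strand is not given in the sources used here.

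*Mrpl21*, *Mrpl13* and *Mrpl3*, further large subunit proteins with bacterial counterparts, showed a similar pattern. *Mrpl21* (chr19:3282901-3292837) was at 32.0 to 33.5 CPM in control mice and at 30.2, 25.2, 28.1 and 23.1 CPM in Ox1RΔSERT mice 11243, 11601, 11613 and 11708, with a log2 fold change of -0.29 (standard error 0.10). *Mrpl13* (chr15:55534094-55557748) was at 49.3 to 52.9 CPM in control mice and at 49.3, 39.9, 41.2 and 36.2 CPM in the Ox1RΔSERT mice in the same order, so that mouse 11243 equalled the lowest control mouse to the digits shown. *Mrpl3* (chr9:105053239-105079888), which lies close to the peptidyl transferase centre, was at 63.5 to 67.7 CPM in control mice and at 60.9, 48.7, 58.2 and 44.9 CPM in Ox1RΔSERT mice. The highest Ox1RΔSERT mouse was 11243 for each of the 3 genes, and 11708 was the lowest. The edgeR adjusted p was 0.316 for each.

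*Mrps11* (chr7:78783119-78792989), a small subunit protein of bacterial type, was at 23.5, 21.5, 19.7 and 19.1 CPM in control mice 10684, 11253, 11560 and 11563. In Ox1RΔSERT mice 11243, 11601, 11613 and 11708 it was at 18.7, 15.8, 17.7 and 13.9 CPM. Its log2 fold change was -0.34 (standard error 0.12; edgeR adjusted p 0.316), and the gap between mouse 11243 and control mouse 11563 was small. *Mrps11* and *Mrpl46*, a large subunit gene, are transcribed in opposite directions and share 173 exon bases at their starts, and *Mrpl46* had a log2 fold change of -0.37 (standard error 0.13; edgeR adjusted p 0.316) with overlapping groups.

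Of the other genes without overlap, 5 were named after their values were seen. In each of them mouse 11243 was the Ox1RΔSERT mouse closest to the control mice. *Mrpl42* and *Mrpl45*, also without overlap, are given below. *Mrps23*, a small subunit protein particular to mitochondria, was at 73.5, 74.5, 73.6 and 74.6 CPM in control mice 10684, 11253, 11560 and 11563. In Ox1RΔSERT mice 11243, 11601, 11613 and 11708 it was at 73, 56.5, 63.6 and 47.3 CPM. Separation from the control mice thus hung on 0.5 CPM for mouse 11243 and was wide for the other 3 mice. *Mrps7*, a small subunit protein of bacterial type, was at 66.4 to 70.2 CPM in control mice and at 66.1, 51.5, 59.1 and 46.8 CPM in the Ox1RΔSERT mice in the same order. *Mrps28* was at 28.5 to 29.7 CPM and at 27.6, 23.5, 23.5 and 18.3 CPM, and *Mrps31* was at 31.6 to 36.6 CPM and at 30.5, 23.3, 30 and 24.9 CPM. *Mrpl51*, a large subunit protein particular to mitochondria, was at 112 to 119 CPM and at 110, 81.6, 106 and 75.6 CPM. The log2 fold changes of these 5 genes were -0.30, -0.29, -0.32, -0.31 and -0.31, with standard errors of 0.11 to 0.13 and edgeR adjusted p of 0.316 to 0.324.

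*Mrps2*, a small subunit protein of bacterial type, had one of the largest differences but overlapping groups, and was also named after its values were seen. It was at 60.2, 65.1, 79.4 and 77.7 CPM in control mice 10684, 11253, 11560 and 11563, and at 64.5, 45.1, 61.6 and 44.6 CPM in Ox1RΔSERT mice 11243, 11601, 11613 and 11708. Its log2 fold change was -0.39 (standard error 0.16; edgeR adjusted p 0.317), and mice 11243 and 11613 lay between the control mice.

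*Mrpl23* (chr7:142532686-142540747) was the exception in sign. It had only 48 to 138 counts per library and values of 2.93, 1.87, 1.08 and 1.49 CPM in control mice 10684, 11253, 11560 and 11563. In Ox1RΔSERT mice 11243, 11601, 11613 and 11708 it had 3.01, 0.967, 1.84 and 2.02 CPM. The groups overlapped fully, and the log2 fold change of 0.09 (standard error 0.40; edgeR adjusted p 0.93) turned to -0.20 relative to all genes without mouse 11243 and to -0.10 without control mouse 11560. Its processed pseudogene *Mrpl23-ps1* on chromosome 2 was assigned 702 to 1038 counts per library, 6.74 to 19.8 times as many, and shares 510 stretches of 31 bases with *Mrpl23* transcripts. The division of reads between the gene and its copy is therefore uncertain. *Mrpl23-ps1* itself had a log2 fold change of -0.22 (standard error 0.12; edgeR adjusted p 0.381).

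**Figure D4:**
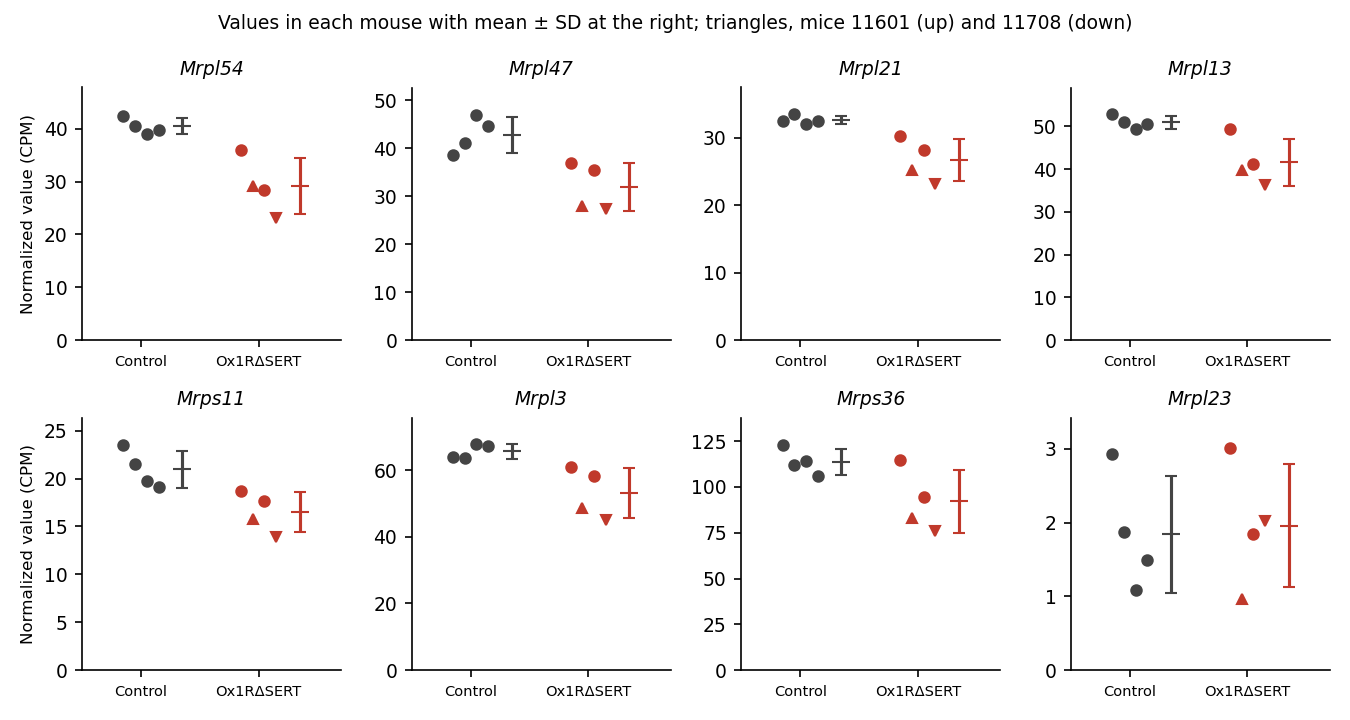
Normalized value (CPM after TMM scaling, vertical axis from 0) of 8 Mrp genes in each mouse, with group mean ± SD (n = 4) to the right of the points. Grey is control, red is Ox1RΔSERT, and triangles mark mice 11601 (up) and 11708 (down). In *Mrpl54*, *Mrpl47*, *Mrpl21*, *Mrpl13*, *Mrps11* and *Mrpl3* the groups do not overlap and mouse 11708 is lowest, in *Mrps36* mouse 11243 lies within the control range, and in *Mrpl23* the groups overlap fully.

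Levels per transcript length, in TPM, differed widely within the family. The mean over the 8 mice ranged from 3.44 TPM (*Mrpl23*) to 191 TPM (*Mrps36*), with a median of 39.2. *Mrps36* (chr13:100735955-100744659), whose protein is a subunit of the alpha-ketoglutarate dehydrogenase complex of the citric acid cycle, was at 191 ± 20.6 TPM in control mice and 192 ± 10.8 TPM in Ox1RΔSERT mice (SD, n = 4 each). Its symbol brought it into the family, and by its protein it was classed with neither subunit of the ribosome. It was followed by *Mrpl34* (147 TPM), *Mrpl42* (146 TPM), *Mrps21* (134 TPM) and *Mrpl30* (127 TPM). *Mrps36* exceeded the next gene by more than its SD, while *Mrpl34* and *Mrpl42* differed by less than theirs, 11.4 and 12.1 TPM in control mice. At the low end, next to *Mrpl23*, were *Mrpl57* (7.34 TPM), *Mrpl1* (7.41 TPM), *Mrpl19* (8.49 TPM) and *Mrpl11* (8.68 TPM), each within 1 SD of the next, whereas *Mrpl23* lay below them by more than its SD.

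Normalized values of the most abundant genes followed the family. *Mrps36* was at 123, 112, 114 and 106 CPM in control mice 10684, 11253, 11560 and 11563, and at 115, 82.9, 94.4 and 76.1 CPM in Ox1RΔSERT mice 11243, 11601, 11613 and 11708. The log2 fold change was -0.30 (standard error 0.13; edgeR adjusted p 0.329), and the groups overlapped because of mouse 11243. *Mrpl42* was at 104 to 111 CPM in control mice and 68.9 to 101 CPM in Ox1RΔSERT mice without overlap, with a log2 fold change of -0.34 (standard error 0.12; edgeR adjusted p 0.316). *Mrpl34*, *Mrps21* and *Mrpl30* had log2 fold changes of -0.31, -0.31 and -0.24 with overlapping groups. In the 39 genes with the higher TPM and the 39 with the lower, the medians were -0.24 and -0.18. Among them 11 and 9 genes were lower at an unadjusted p under 0.05 by edgeR, against 4.96% of all genes tested. Of the genes at low levels, *Mrpl11* had a log2 fold change of -0.31, *Mrpl19* of -0.20, *Mrpl57* of -0.18 and *Mrpl1* of -0.12, all with overlapping groups. *Mrpl19* was 0.09 above all genes on log2(TPM + 1), and 35.8% of its stretches of 31 bases are shared with *Gcfc2*, which overlaps it on the opposite strand.

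The subunits were alike. The median log2 fold change was -0.23 over the 49 *Mrpl* genes and -0.19 over the 29 *Mrps* genes. Of them 12 (24.5%) and 8 (27.6%) were lower at an unadjusted p under 0.05 by edgeR, against 4.96% of all genes tested. Grouped by the place and origin of the protein, the medians were -0.23 for 30 large subunit proteins with a bacterial counterpart and -0.22 for 21 large subunit proteins particular to mitochondria. They were -0.19 for 16 small subunit proteins with a bacterial counterpart and -0.18 for 10 small subunit proteins particular to mitochondria. *Mrps36* was placed in none of these groups. These medians hold after TMM scaling, and the family's median is above 0 on the TPM scale. Estimates nearest to 0 were those of *Mrps30* (-0.04), *Mrps6* (-0.06), *Mrps9* (-0.06), *Mrpl49* (-0.08) and *Mrpl52* (-0.09), named after their values were seen. *Mrps6* varied widely among control mice, at 28.6, 30.5, 38.1 and 46.7 CPM in mice 10684, 11253, 11560 and 11563.

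The 3 paralogs *Mrps18a*, *Mrps18b* and *Mrps18c* encode related proteins that occupy different places, *Mrps18a* in the large subunit and the other two in the small subunit. Their coding sequences give proteins of 196, 254 and 143 residues. Mean levels were 46.0, 38.7 and 32.4 TPM. *Mrps18a* was at 41.9 to 49.6 CPM in control mice and 32.1 to 45.1 CPM in Ox1RΔSERT mice, with a log2 fold change of -0.28 (standard error 0.13). *Mrps18b* and *Mrps18c* had log2 fold changes of -0.18 (standard error 0.11) and -0.14 (standard error 0.12). The groups overlapped in each of the 3 genes, and the edgeR adjusted p was 0.333, 0.465 and 0.568.

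Of the members with roles beyond the structure of the ribosome, *Mrpl12*, *Mrpl45* and *Mrpl58* had estimates close to the family median of -0.21. *Mrpl12* (chr11:120484613-120489065), which also binds the mitochondrial RNA polymerase, was at 143 to 149 CPM in control mice. It was at 145, 113, 139 and 93.5 CPM in Ox1RΔSERT mice 11243, 11601, 11613 and 11708, with a log2 fold change of -0.25 (standard error 0.14; edgeR adjusted p 0.398). Mouse 11243 was at control level, and mouse 11613 was just below it. *Mrpl45*, which holds the ribosome at the inner membrane, was at 42.9 to 45.3 CPM in control mice and 32.2 to 42.8 CPM in Ox1RΔSERT mice, with a log2 fold change of -0.23 (standard error 0.10; edgeR adjusted p 0.324). *Mrpl58*, a peptidyl-tRNA hydrolase that frees stalled ribosomes, was at 23.9 to 27.6 CPM and 16.8 to 25.2 CPM, with a log2 fold change of -0.23 (standard error 0.14; edgeR adjusted p 0.424).

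Ratios between summed CPM within 1 library do not depend on the factor that scales the library, but they do depend on correction for transcript length. The summed CPM of the *Mrps* genes was 0.524 to 0.544 of that of the *Mrpl* genes in all 8 mice. The 2 sets thus kept their proportion also in mice 11601 and 11708. In TPM this ratio was 0.597 to 0.615, and the ratios to other genes were not computed in TPM. Relative to 84 nuclear genes of the respiratory chain, the 78 genes summed to 0.0828, 0.0833, 0.0799 and 0.083 in control mice 10684, 11253, 11560 and 11563. In Ox1RΔSERT mice 11243, 11601, 11613 and 11708 the ratio was 0.0822, 0.0916, 0.0802 and 0.0872. It was therefore highest in mice 11601 and 11708, where the respiratory chain genes summed to 30500 and 28900 CPM against 41400 to 44800 CPM in the other 6 mice. Relative to the cytosolic ribosomal proteins the ratio was 0.368 to 0.437 in control mice and 0.404, 0.266, 0.367 and 0.318 in the Ox1RΔSERT mice. It was lowest in mice 11601 and 11708. The cytosolic ribosomal protein genes summed to 10500 CPM in mouse 11601 and 7940 CPM in mouse 11708, against 8480 to 9730 CPM in control mice. The 13 mitochondrial mRNAs summed to 109 to 142 times the 78 genes in control mice and 89.9 to 131 times in Ox1RΔSERT mice, with overlap.

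**Figure D5:**
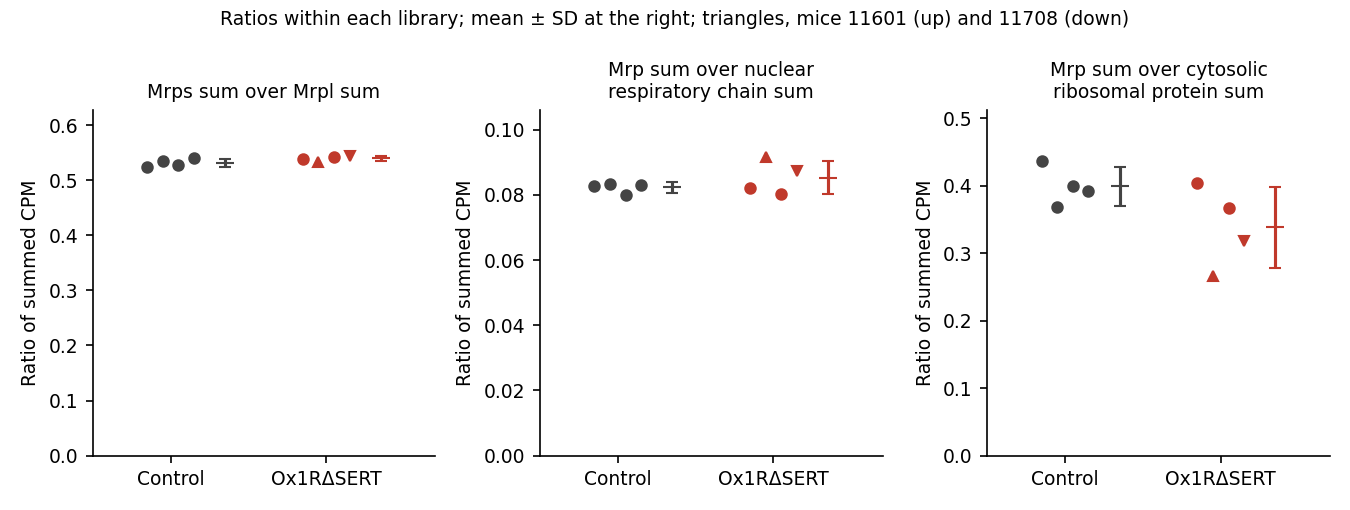
Ratios of summed CPM within each library (vertical axes from 0): Mrps over Mrpl genes, all Mrp genes over nuclear respiratory chain genes, and all Mrp genes over cytosolic ribosomal protein genes. Points are mice, with group mean ± SD (n = 4) at the right, and triangles mark mice 11601 (up) and 11708 (down). The first ratio stays between 0.524 and 0.544, the second is highest and the third lowest in mice 11601 and 11708.

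Some of the genes lie head to head with another gene, and the share of such pairs over all genes was not determined. A protein-coding neighbour on the opposite strand started within 1000 bases upstream, or overlapped the start by up to 300 bases, in 23 of the 78 genes, and 20 of these neighbours were tested. The neighbours had a median log2 fold change of -0.14, with 12 of 20 below 0, against 49.6% of all genes tested. The *Mrp* genes with and without such a neighbour had medians of -0.18 and -0.23. Start sites of *Mrpl36* and *Ndufs6*, a complex I subunit, overlap by 29 bases, and their log2 fold changes were -0.26 and -0.32. Those of *Mrpl54* and *Apba3* lie 26 bases apart, with log2 fold changes of -0.47 and -0.15. For *Mrpl30* and *Mitd1* they were -0.24 and 0.23. *Mrps12* and *Sars2*, the mitochondrial seryl-tRNA synthetase, had -0.25 and 0.02. Signs thus differed within several pairs, although none of these differences was tested.

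Promoter sequences were read from RefSeq on GRCm38.p6, as 250 bases before to 50 after the start, for 69 of the 78 genes. Motifs of 5 kinds were searched on both strands by exact match. The nuclear respiratory factor 1 (NRF1) motif CGCATGCG was present in 7 of 69 promoters (10.1%), against 2.07% of the promoters of the 27025 genes with an entry. The ETS motif CCGGAAG, bound by GABP among other factors, was present in 26 (37.7%, against 9.93%). The YY1 motif AAGATGGC was present in 12 (17.4%, against 3.19%). The E-box CACGTG was present in 5 (7.25%, against 8.09%) and the estrogen-related receptor motif AAGGTCA in 4 (5.8%, against 5.38%). At least 1 of the first 3 motifs was present in 38 of 69 promoters (55.1%, against 14.1%). The 27025 genes were not limited to protein-coding genes or to genes expressed in BAT, whereas the 69 are both. How far these shares are particular to the family was therefore not tested. The median log2 fold change was -0.18 in genes with the NRF1 motif, -0.20 with the ETS motif and -0.26 with the YY1 motif, and -0.23, -0.22 and -0.19 in those without. A match to these letters is a description of the sequence and not a bound site.

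The windows below run from 120 bases before the RefSeq start to at most 30 bases past the first start, 5′ to 3′ on the strand of the gene, with the NRF1, ETS or YY1 motif in capitals on either strand. Only windows that hold one of these motifs are shown, and those left too short by the first start were dropped. The first 4 belong to genes with the lowest p or the highest level in the family, and the last 3 hold the NRF1 motif. Of the genes with the lowest p or highest level, *Mrpl47*, *Mrps36* and *Mrpl30* held none of these motifs. *Mrpl54* and *Mrpl13* had no promoter entry. *Mrps11* is at chr7:78783011-78783148 (+ strand), *Mrpl3* at chr9:105053148-105053268 (+ strand), *Mrpl34* at chr8:71464806-71464955 (+ strand), *Mrps21* at chr3:95871490-95871634 (- strand), *Mrpl9* at chr3:94443216-94443347 (+ strand), *Mrpl17* at chr7:105811070-105811207 (- strand) and *Mrpl22* at chr11:58171544-58171690 (+ strand).
Mrps11: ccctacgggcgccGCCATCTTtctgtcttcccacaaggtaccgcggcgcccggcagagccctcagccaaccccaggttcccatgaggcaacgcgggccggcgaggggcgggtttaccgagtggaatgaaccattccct
Mrpl3: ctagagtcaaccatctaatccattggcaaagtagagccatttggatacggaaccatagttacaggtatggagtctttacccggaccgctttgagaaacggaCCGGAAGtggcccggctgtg
Mrpl34: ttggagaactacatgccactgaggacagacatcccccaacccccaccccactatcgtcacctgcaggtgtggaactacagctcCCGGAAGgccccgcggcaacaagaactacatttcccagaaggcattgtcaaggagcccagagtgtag
Mrps21: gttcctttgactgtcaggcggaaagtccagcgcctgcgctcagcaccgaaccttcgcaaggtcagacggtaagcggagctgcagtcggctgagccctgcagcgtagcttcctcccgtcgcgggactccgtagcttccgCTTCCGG
Mrpl9: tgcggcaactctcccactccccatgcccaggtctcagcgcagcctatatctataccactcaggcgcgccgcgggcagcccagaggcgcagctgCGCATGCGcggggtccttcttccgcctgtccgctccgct
Mrpl17: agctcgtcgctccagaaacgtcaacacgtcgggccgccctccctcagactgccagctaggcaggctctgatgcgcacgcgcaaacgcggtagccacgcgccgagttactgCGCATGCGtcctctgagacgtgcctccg
Mrpl22: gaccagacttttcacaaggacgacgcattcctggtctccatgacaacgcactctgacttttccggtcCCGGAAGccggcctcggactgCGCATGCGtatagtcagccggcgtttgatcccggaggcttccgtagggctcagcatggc
The capitals mark YY1 in *Mrps11*, ETS in *Mrpl3*, *Mrpl34* and *Mrps21*, NRF1 in *Mrpl9* and *Mrpl17*, and ETS followed by NRF1 in *Mrpl22*. Log2 fold changes of the last 3 genes were -0.18, -0.18 and -0.17, with overlapping groups.

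Sequence shared with other genes limits the counts of some members. Of the 78 genes, 16 share no stretch of 31 bases with any other GENCODE transcript on either strand, *Mrpl54* among them, and 29 share more than 10% of theirs. The share is over 50% in *Mrpl53* (84.4%, with *Gm42688*), *Mrps34* (73.8%, mostly with *Mapk8ip3*) and *Mrps25* (68.9%, with *Nr2c2*). Their log2 fold changes of -0.17, -0.16 and -0.20 are uncertain for that reason. Of the 6 genes with the lowest p, the share is 25.8% in *Mrpl47*, 14.5% in *Mrpl21* and 8.65% or less in the other 4.

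Other parts of the mitochondrial translation machinery had estimates of similar size after TMM scaling, and edgeR called none of their genes at the adjusted threshold. The 5 ribosomal proteins that carry other symbols had a median log2 fold change of -0.19, and all 5 were below 0. *Aurkaip1*, a small subunit protein, was at 61.4 to 73.4 CPM in control mice and 45.3 to 61.1 CPM in Ox1RΔSERT mice, with a log2 fold change of -0.30 (standard error 0.12; edgeR adjusted p 0.321). *Dap3*, a small subunit protein that binds GTP and was named after its values were seen, had -0.20 (standard error 0.10).

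Of 20 mitochondrial aminoacyl-tRNA synthetases and amidotransferase subunits, 19 were below 0, with a median of -0.19. At an unadjusted p under 0.05 by edgeR 2 were lower, against 4.96% of all genes tested. *Yars2*, the tyrosyl-tRNA synthetase, was at 23.7 to 27.1 CPM in control mice and 17.6 to 23.2 CPM in Ox1RΔSERT mice without overlap, with a log2 fold change of -0.27 (standard error 0.11; edgeR adjusted p 0.32). *Sars2* was the only one above 0, at 0.02. All 14 translation factors were below 0, with a median of -0.17. *Gfm1*, mitochondrial elongation factor G, was at 178 to 226 CPM in control mice and 148 to 190 CPM in Ox1RΔSERT mice, with a log2 fold change of -0.33 (standard error 0.12; edgeR adjusted p 0.316). The translation factors held 2 genes at an unadjusted p under 0.05 by edgeR, both lower, against 4.96% of all genes tested.

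Of 27 ribosome assembly factors, 23 were below 0, with a median of -0.15. At an unadjusted p under 0.05 by edgeR 5 were lower, against 4.96% of all genes tested. *Fastkd2*, needed for the large mitochondrial ribosomal RNA, was at 20.9, 23.9, 25.2 and 25.3 CPM in control mice 10684, 11253, 11560 and 11563. In Ox1RΔSERT mice 11243, 11601, 11613 and 11708 it was at 21.6, 18.7, 19.0 and 16.7 CPM, with a log2 fold change of -0.33 (standard error 0.11; edgeR adjusted p 0.316). *Mettl15*, an rRNA methyltransferase, had the highest estimate of this list at 0.19 (standard error 0.21). The mRNAs that the ribosomes translate, the 13 of the mitochondrial genome, had log2 fold changes of -0.66 (*mt-Nd5*) to -0.28, with a median of -0.44. At an unadjusted p under 0.05 edgeR gave 2 of the 13 as lower and DESeq2 gave 9, against 4.96% and 4.82% of all genes. DESeq2 called *mt-Nd5*, a complex I subunit, at an adjusted p of 0.0371, where edgeR gave 0.316. The mitochondrial ribosomal RNAs, which poly-A selection captures incompletely, had log2 fold changes of -0.41 and -0.43 (standard errors 0.40 and 0.44). Without mice 11601 and 11708 the medians relative to all genes were -0.05 for the 5 other ribosomal proteins, -0.02 for the synthetases, -0.03 for the translation factors, 0.03 for the assembly factors and -0.22 for the mitochondrial mRNAs.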

How the data were processed

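Male mouse BAT of 4 control and 4 Ox1RΔSERT mice was analysed. Estimated counts of each gene, without normalization, were deposited by the authors and were made by Salmon 0.14.1 in nf-core/rnaseq 1.4 from stranded poly-A libraries with GRCm38 as the reference. The submitters' processing notes also list STAR and name GRCm38.p6. The authors deposited TPM values as well, normalized by them for transcript length and library. The annotation release is not given in the sources used here.

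Estimated counts were rounded. Genes were compared with edgeR 4.0.16 (filterByExpr, TMM, glmQLFit, glmQLFTest; R 4.3.3), two-sided, without covariates, with Benjamini-Hochberg adjustment at 0.05. Standard errors come from the F statistic. Exact permutation tests used 70 assignments, with a smallest p of 0.0286. The mice are numbered in the labels and p-values measure the spread between them. Alternatives were DESeq2 1.42.0, other scalings and filters, robust dispersions, limma 3.58.1 (voom, and limma-trend on log2 of TPM plus 1 or 0.1) and each mouse left out. Symbols and positions came from GENCODE M21, which had an entry for 44118 of the 44674 genes. Protein sequences were not used here. The fits were tested on simulated counts in which each gene was drawn on its own. No shift of many genes within single mice was simulated, so this does not cover that feature of these data. Floors of 3 counts were 0.0592 to 0.0951 CPM and cover counting error only.

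The family, the gene lists and the tests were chosen with earlier results of these data known. Genes named were the 6 with the lowest p in each direction, the 5 with the highest and the 5 with the lowest mean TPM, the *Mrps18* paralogs, 4 members with further roles, and of each list of mitochondrial translation the gene with the lowest p in each direction. Others are said to be named after their values were seen, or serve as examples of neighbours or shared sequence.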

Additional observations from a re-analysis of the deposited data

Results flagged for a closer look

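The ratio of the summed *Mrp* genes to the summed nuclear genes of the respiratory chain was 0.0799 in control mouse 11560, outside the narrow range of 0.0828 to 0.0833 in the other 3 control mice. The gap to the nearest mouse was 0.853 of the range of the group, above the 95% limit for 4 values. Sums, ratios and named genes were examined in 58 groups of 4 mice, and this was the only one past the limit, where chance alone gives about 1 in 20.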

How the results depend on the processing

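Over 20 alternatives, edgeR and limma called 0 genes at an adjusted p under 0.05, whereas DESeq2 called 266 in all, 0 of them among the 78. The median log2 fold change of the 78 genes, -0.21, was reversed to 0.11 on log2(TPM + 1) and on log2(TPM + 0.1), was -0.01 with library size in place of TMM scaling, and lay between -0.31 and -0.14 with 1 mouse left out. Relative to all tested genes it lay between -0.30 and -0.13 under the alternatives chosen at the start, and was -0.04 without mice 11601 and 11708. The 20 genes lower at an unadjusted p under 0.05 (25.6%, against 4.96% of all genes tested) became 1 with library size (1.28%, against 0.607%). They became 0 on log2(TPM + 1) and log2(TPM + 0.1), against 0.242% and 0.228% of all genes. Without mice 11601 and 11708 they became 1 (1.28%, against 1.2%). With 1 mouse left out they became 6 to 42 (7.69% to 53.8%, against 2.02% to 8.5%). The 13 genes without overlap (against 2.81% of all genes) became 1 with library size (against 0.483%) and 0 on the TPM scale (against 0.166%). They became 12 to 37 with 1 mouse left out (against 3.25% to 8.64% of all genes). With 1 mouse left out, DESeq2 called 0 to 13 of the 78 and 17 to 1513 genes in all, the 13 and the 1513 both without mouse 11243. The summed level, as log2 ratio of group means, was -0.23 and turned to 0.08 in TPM. As a share of the counts of nuclear genes, without TMM scaling, the group means were 0.582% in control mice and 0.518% in Ox1RΔSERT mice. The cause of these differences was not tested.

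Relative to all tested genes, *Mrpl19* turned to 0.09 on log2(TPM + 1) and 0.04 on log2(TPM + 0.1), *Mrpl23* ranged from -0.20 (without Ox1RΔSERT mouse 11243) to 0.42 (without mice 11601 and 11708), with 0.38 without control mouse 10684 and -0.10 without control mouse 11560, and *Mrps18c* was at 0.01 and the assembly factors were at 0.03 without mice 11601 and 11708. The other 19 named genes kept their sign relative to all genes in each alternative. No paired analysis was possible because the labels do not say which mice shared a litter. With 4 mice in a group and 2 of 4 Ox1RΔSERT mice apart, fold changes of the size seen here were not resolved gene by gene.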

Other observations

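Regulators of mitochondrial genes did not move as one. Of 13 such genes, 7 had log2 fold changes below 0, with a median of -0.06. At an unadjusted p under 0.05 by edgeR 2 were lower and 2 were higher, against 4.96% and 10.2% of all genes tested. *Gabpa*, a subunit of the factor that binds the ETS motif, was at 78.2, 65.3, 76.6 and 84.7 CPM in control mice 10684, 11253, 11560 and 11563. In Ox1RΔSERT mice 11243, 11601, 11613 and 11708 it was at 71.1, 60.1, 56.1 and 56.8 CPM, with a log2 fold change of -0.32 (standard error 0.11; edgeR adjusted p 0.316). *Tfam*, *Myc* and *Nrf1* were named after their values were seen. *Tfam*, which packages the mitochondrial genome and starts its transcription, was at 32.2 to 35 CPM in control mice and 25.8 to 31.1 CPM in Ox1RΔSERT mice without overlap, with a log2 fold change of -0.25 (standard error 0.09; edgeR adjusted p 0.316). *Pprc1*, a coactivator related to PGC-1, was at 12.3 to 16.7 CPM in control mice and at 15.5, 25.8, 21.4 and 22.8 CPM in Ox1RΔSERT mice, with a log2 fold change of 0.53 (standard error 0.16; edgeR adjusted p 0.316). *Myc* was at 6.88 to 12.8 CPM in control mice and at 9.65, 22.8, 10.6 and 17.2 CPM in Ox1RΔSERT mice, with a log2 fold change of 0.76 (standard error 0.31; edgeR adjusted p 0.32), and was highest in mice 11601 and 11708. *Nrf1* was at 8.08 to 9.15 CPM in control mice and 9.63 to 10.4 CPM in Ox1RΔSERT mice without overlap, with a log2 fold change of 0.21 (standard error 0.10; edgeR adjusted p 0.344).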
